A study of Homo sapiens with 5 samples.

Results

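The genes described here encode glucose uptake and glycolysis: the transporter SLC2A1, the hexokinases HK1 and HK2, and the enzymes GPI, ALDOA, GAPDH, PGK1, ENO1, PKM and LDHA. They were chosen by name, and all their probes among the 19144 that carry sample names were taken. That gave 20 probes, for 10 of the 11041 genes measured. Probes of the array without sample names were not searched for these genes. All 20 passed the filter on dim probes, a detection p-value under 0.05 on at least 2 arrays, as did 19105 probes in all. SLC2A1, GPI and ENO1 had 1 probe each, HK1, HK2, ALDOA and PGK1 had 2, and GAPDH, PKM and LDHA had 3.

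Glycolysis converts glucose to pyruvate in the cytosol and yields ATP and NADH. SLC2A1, also called GLUT1, carries glucose across the plasma membrane, and hexokinases trap it in the cell as glucose phosphate. Leukaemia cells often turn much of the pyruvate into lactate even when oxygen is present, and mature human red cells, which lack mitochondria, depend on glycolysis for ATP.

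Expression was measured in K562, an established line from a human chronic myeloid leukaemia with features of red cell precursors. The sh-JMJD1B group (3 arrays) carried a hairpin RNA against JMJD1B (now KDM3B), a demethylase of histone H3, and the sh-CTL group (2 arrays) a control hairpin. Both groups were stable lines with a Tet-on system, grown at 37 °C and 5% CO2 with 5% serum and 0.05% antibiotics, and both received 1 µg/ml doxycycline for 48 h. How many hairpins or clones stand behind each line, and whether replicates were separate cultures, the labels do not say. Each p-value thus reflects the spread among these arrays, which may be technical, and knockdown and differences between the stable lines cannot be told apart. JMJD1B itself was not analysed here.

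Between 18230 and 18596 probes were detected per array, and the median signal was 464.5 to 498.6 on the sh-JMJD1B arrays and 455.6 and 458 on the sh-CTL arrays before normalization. Of the K562 markers, 14 of 16 were measured, among them the fetal globin genes HBG1 and HBG2 with signals of 63435 to 66519. Of 17 markers of lymphocytes, monocytes, epithelium, fibroblasts and endothelium, 7 were measured, and CD3E, CD163, COL1A1 and PECAM1 were among those with no probe analysed. Over all 19105 probes, limma called 449 higher and 519 lower in sh-JMJD1B at an adjusted p under 0.05, or 46.4% higher among the calls, against 83.8% without normalization.

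Of the 20 probes for uptake and glycolysis, 2 were lower and 0 were higher in sh-JMJD1B, namely the probe of SLC2A1 and the brighter probe of HK2. That is 10% of the probes, against 5.07% of all probes tested called in either direction, 2.72% lower and 2.35% higher. On the brightest probe of each gene, 2 of 10 were lower and 0 higher, against 3.7% and 2.56% of the 11041 genes measured. At an unadjusted p under 0.05 in limma, 7 of the 20 passed, 4 negative and 3 positive, or 35% against 21.2% of all probes. After normalization, the groups did not overlap on 7 probes, or 35% against 37.8% of all probes. On 4 of them sh-JMJD1B was lower, against 20.2% of all probes, and on 3 higher, against 17.6%. The median difference over the 20 probes was -0.013 on the log2 scale, and over all probes it was -0.001.

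Differences here are log2 levels of sh-JMJD1B minus sh-CTL, taken after 16 was added to each signal and the arrays were quantile normalized. They are given ± standard error (n = 3 and 2 arrays) with limma's p-value, adjusted by the Benjamini-Hochberg method over all 19105 probes. Because background signal remains in the values, the change of a dim probe is understated. In RNA from whole cultures, fewer expressing cells and less RNA per cell cannot be told apart.

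**Figure D1:**
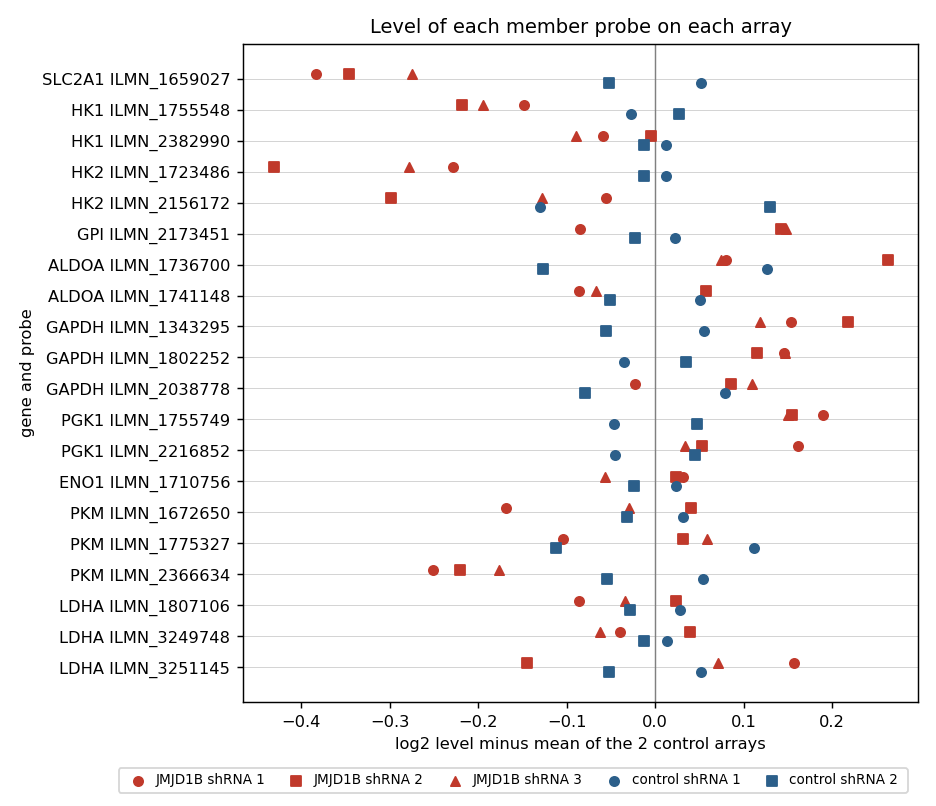
Normalized log2 level of each of the 20 probes on each of the 5 arrays, minus the mean of the 2 control arrays, with probes in the order of the pathway. Red points are the 3 sh-JMJD1B arrays and blue points the 2 sh-CTL arrays; the probe of SLC2A1, HK1 probe ILMN_1755548, HK2 probe ILMN_1723486 and PKM probe ILMN_2366634 have all red points to the left of the blue ones.

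SLC2A1, the glucose transporter, fell. Its only probe among those with sample names was ILMN_1659027. The deposited signals were 4460.2, 4195 and 4405 on the sh-JMJD1B arrays and 5218 and 5103 on the sh-CTL arrays. Every sh-JMJD1B array was below both sh-CTL arrays. After normalization the levels were 12.01, 12.05 and 12.12 against 12.44 and 12.34, and the groups again did not overlap. The difference was -0.33 ± 0.06, with a 95% interval from -0.48 to -0.19, a 1.26-fold lower level (adjusted p = 0.018 in limma). The call was lost in 7 of 17 alternatives, among them those without sh-JMJD1B replicate 1, sh-JMJD1B replicate 2 or sh-CTL replicate 1 (adjusted p = 0.062, 0.075 and 0.11 in limma), without normalization (-0.25, adjusted p = 0.075) and after either background correction. Levels over the 5 arrays were compared with those of SLC2A1 by root mean square distance after centring. The 3 closest genes were HACD3 (0.01), SERPINC1 (0.024) and LHX6 (0.027), and the median over the 11040 genes compared was 0.177. These 3 were picked as the closest, so their place below that median was fixed by the choice. Shared regulation was not tested.

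HK2, the inducible hexokinase of many tumours, fell on its brighter probe. ILMN_1723486 had signals of 1526, 1222 and 1354 on the sh-JMJD1B arrays and 1611 and 1640.2 on the sh-CTL arrays. The groups did not overlap, and sh-JMJD1B replicate 2 was the lowest array. The normalized level was 10.41 ± 0.11 (SD, n = 3) in sh-JMJD1B and 10.72 ± 0.02 (SD, n = 2) in sh-CTL. The difference of -0.31 ± 0.07, or 1.24-fold lower, had a 95% interval from -0.47 to -0.16 (adjusted p = 0.035 in limma). The second probe, ILMN_2156172, had signals of 1007, 788 and 877 against 856 and 1055, so the groups overlapped there. Its difference was -0.16 ± 0.09 (adjusted p = 0.36 in limma), and the interval from -0.37 to 0.05 holds both 0 and the change on the first probe. With 1 array left out, this difference ran from -0.29 to -0.03. The platform annotation ties both HK2 probes to the same transcript. The call on the brighter probe was lost in 8 of 17 alternatives, among them those in which sh-JMJD1B replicate 2 or 3 or either sh-CTL array was left out (adjusted p from 0.073 to 0.14 in limma), without normalization (-0.25) and after either background correction.

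HK1, the hexokinase of most tissues and of red cells, passed the test on neither probe. The bright probe ILMN_2382990 had signals of 34704, 33229.7 and 31488 in sh-JMJD1B and 31468 and 33044 in sh-CTL, and its difference was -0.05 ± 0.06 with an interval from -0.18 to 0.08. The dim probe ILMN_1755548 had signals of 414, 369 and 374 against 413 and 433, which overlapped before normalization. After normalization they did not (8.66, 8.59 and 8.61 against 8.78 and 8.84), and the difference was -0.19 ± 0.06 (adjusted p = 0.1 in limma). The platform annotation ties these probes to different transcripts of HK1; which transcripts each detects was not tested.

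**Figure D2:**
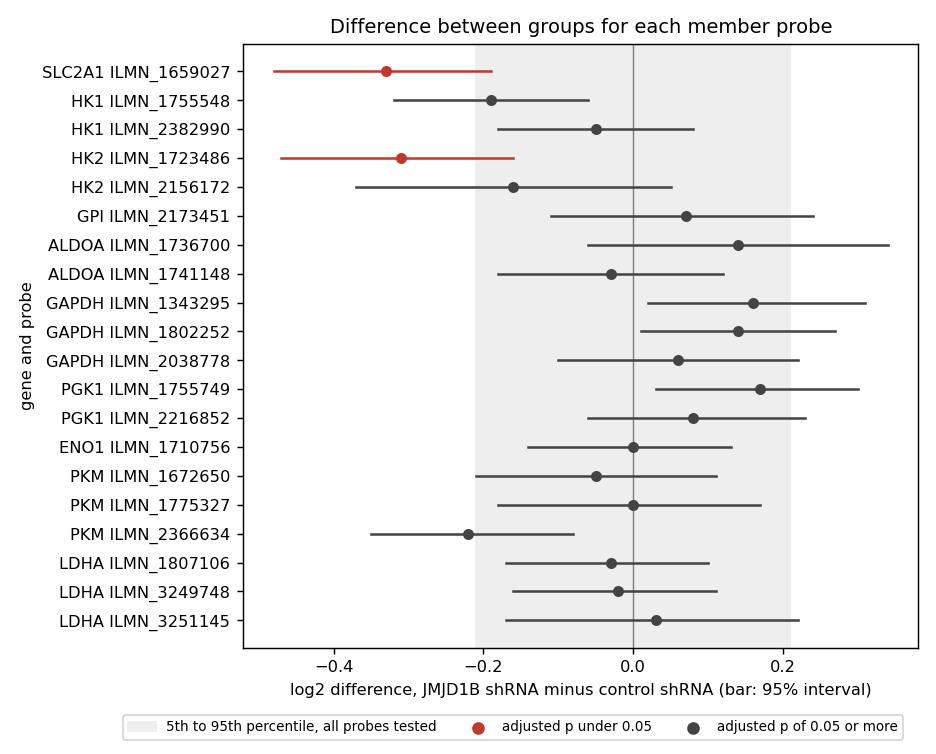
Difference between groups for each of the 20 probes, as log2 of sh-JMJD1B minus sh-CTL with its 95% interval, in the order of the pathway. Red marks adjusted p under 0.05, and the grey band spans the 5th to 95th percentile of all probes tested (-0.21 to 0.21); the called probes of SLC2A1 (-0.33) and HK2 (-0.31) and PKM probe ILMN_2366634 (-0.22) lie below it, and none of the 20 lies above.

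The upstream sequences of the genes with a called probe are shown so that binding motifs of known glycolysis regulators can be seen. Each line holds the 250 bases before a RefSeq gene start (GRCh38.p14), 5′ to 3′ on the gene's strand, and HK2 has a pair of annotated starts. Capitals mark ACGTG, the core of the site bound by hypoxia-inducible factors, CACGTG, the E-box of MYC and related factors, which contains ACGTG, and GGGCGG, the GC box of SP1, each on either strand.
SLC2A1, chr1:42958869-42959118, minus strand: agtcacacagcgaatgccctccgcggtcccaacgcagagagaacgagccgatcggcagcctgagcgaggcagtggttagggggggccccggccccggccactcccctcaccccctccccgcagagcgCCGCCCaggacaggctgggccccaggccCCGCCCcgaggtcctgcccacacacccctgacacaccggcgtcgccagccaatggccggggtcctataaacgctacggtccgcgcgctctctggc
HK2 first start, chr2:74833877-74834126, plus strand: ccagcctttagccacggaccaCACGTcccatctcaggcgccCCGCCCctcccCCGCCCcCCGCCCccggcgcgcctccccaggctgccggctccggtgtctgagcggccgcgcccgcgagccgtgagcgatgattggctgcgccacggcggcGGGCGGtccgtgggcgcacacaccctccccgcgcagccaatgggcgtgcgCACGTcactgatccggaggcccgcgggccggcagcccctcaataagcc
HK2 second start, chr2:74834920-74835169, plus strand: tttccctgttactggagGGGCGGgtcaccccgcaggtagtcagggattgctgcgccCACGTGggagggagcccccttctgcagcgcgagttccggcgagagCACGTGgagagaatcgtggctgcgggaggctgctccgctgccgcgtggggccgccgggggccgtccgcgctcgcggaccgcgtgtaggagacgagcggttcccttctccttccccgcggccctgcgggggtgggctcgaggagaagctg

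The SLC2A1 window held GGGCGG on the opposite strand at 123 and 95 bases before the start, and neither of the other motifs. The first HK2 window held 4 matches to GGGCGG and 2 to ACGTG, and the second held CACGTG at 194 and 149 bases before the start and 1 GGGCGG. Over the 35116 windows of this length in the RefSeq table, 18.5% held ACGTG, 6.34% CACGTG and 42.6% GGGCGG. Of the 20 windows of the 10 genes, 9 held ACGTG (45%), 4 CACGTG (20%) and 11 GGGCGG (55%); 7 of the 20 windows belong to HK1. Windows with ACGTG belonged to HK2, GPI, ALDOA, GAPDH, PGK1 and LDHA. Of these genes, HK2 was called lower on its brighter probe only, and the other 5 had no call. A match is a description of the letters and shows no binding.

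The enzymes in the middle of the pathway had no call. GPI, which turns glucose phosphate into fructose phosphate, had signals of 3015, 3254 and 3269 in sh-JMJD1B and 2871 and 2874 in sh-CTL on ILMN_2173451. Replicate 1 of sh-JMJD1B fell below both controls after normalization (11.46 against 11.56 and 11.52), and the difference was 0.07 ± 0.08. ALDOA, the aldolase that splits fructose bisphosphate, was at -0.03 ± 0.07 on the bright probe ILMN_1741148 and at 0.14 ± 0.09 on ILMN_1736700. The intervals, from -0.18 to 0.12 and from -0.06 to 0.34, overlap widely. After normalization the groups overlapped on both probes, though in the deposited signals of ILMN_1736700 they did not.

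GAPDH, which makes NADH and often serves as a reference gene, had positive differences on all 3 probes, with no call; without sh-CTL replicate 2, ILMN_2038778 was at -0.02. On ILMN_1343295 the normalized levels were 13.42, 13.49 and 13.39 in sh-JMJD1B and 13.33 and 13.21 in sh-CTL, a difference of 0.16 ± 0.06 (adjusted p = 0.17 in limma). ILMN_1802252 was at 0.14 ± 0.06 (adjusted p = 0.22 in limma), and on both of these probes the groups did not overlap. ILMN_2038778, with deposited signals of 15655 to 18183, was at 0.06 ± 0.07. There the groups overlapped after normalization, though not in the deposited signals. PGK1, the kinase that makes the first ATP of the pathway, was also positive. Its probe ILMN_1755749 had signals of 5766, 5142 and 5101 in sh-JMJD1B against 4279 and 4753 in sh-CTL, with no overlap, and a difference of 0.17 ± 0.06 (adjusted p = 0.15 in limma). Its other probe, ILMN_2216852, was at 0.08 ± 0.07 with an interval from -0.06 to 0.23. None of these probes was called under any of the alternatives run.

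ENO1, the enolase that forms phosphoenolpyruvate, was at 0 ± 0.06 on ILMN_1710756, with an interval from -0.14 to 0.13. Its signals of 39828, 36337 and 34582 in sh-JMJD1B and 35078 and 35891 in sh-CTL were interleaved. LDHA, which reduces pyruvate to lactate and restores NAD, was at -0.03 ± 0.06 on ILMN_1807106 and -0.02 ± 0.06 on ILMN_3249748, both with interleaved arrays. The intervals of these bright probes, from -0.17 to 0.1 and from -0.16 to 0.11, leave out a fall of the size seen for SLC2A1. The third LDHA probe, ILMN_3251145, was near background, with signals of 167 to 216 and detection on 4 of 5 arrays, and stood at 0.03 ± 0.09. ENO1 reached 49.3% to 57.7% of the highest signal of its array and HK1 probe ILMN_2382990 44.8% to 50.3%; whether the response is linear there was not tested.

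PKM, the pyruvate kinase made as alternative splice forms, gave different values on its 3 probes, which the platform annotation ties to 3 transcripts. ILMN_2366634, the brightest, had signals of 3402, 3169 and 3267 in sh-JMJD1B and 3646 and 3508 in sh-CTL, with no overlap. Its difference of -0.22 ± 0.06 missed the threshold (adjusted p = 0.079 in limma), with an interval from -0.35 to -0.08. With trend and robust options in eBayes, and with 1 probe fitted per gene, the same difference passed (adjusted p = 0.031 and 0.049 in limma). ILMN_1775327 was at 0 ± 0.08 and the dim ILMN_1672650 at -0.05 ± 0.07, and on both the arrays of the groups were interleaved. Which splice forms each probe detects was not tested.

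**Figure D3:**
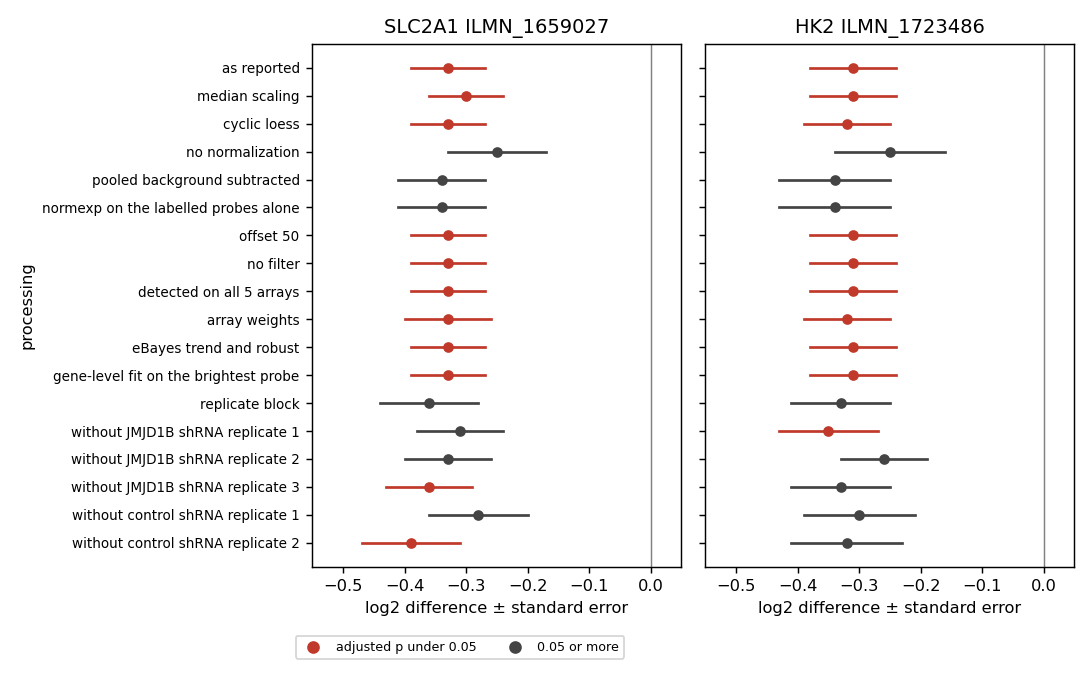
Difference for SLC2A1 (ILMN_1659027, left) and HK2 (ILMN_1723486, right) under each way of processing, as log2 of sh-JMJD1B minus sh-CTL ± standard error. Red marks adjusted p under 0.05 in limma; every value lies between -0.39 and -0.25 for SLC2A1 and between -0.35 and -0.25 for HK2, while the call is lost under 7 and 8 of the 17 alternatives.

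The other enzymes of the glycolytic steps had no call. Of 27 genes listed, 17 were measured with 26 probes, and 0 probes passed in limma in either direction, with at most 1 under any alternative. At an unadjusted p under 0.05 in limma, 10 of the 26 passed, all of them negative, or 38.5% against 21.2% of all probes in either direction. The 10 include both probes of PFKFB2 and both of ENO3. They also include the dimmer TPI1 probe ILMN_1707627 (-0.17 ± 0.07), while the brighter TPI1 probe ILMN_2181191 was at 0.14 ± 0.08. On the brightest probe of each gene, 13 were negative and 4 positive, with a median of -0.094, against -0.009 over the 11041 genes measured. The smallest p-values were those of ADPGK, a glucokinase that uses ADP, at -0.23 ± 0.07 (adjusted p = 0.09 in limma), and of PFKFB2, which makes the activator of phosphofructokinase, at -0.21 ± 0.06 (adjusted p = 0.091 in limma). The phosphofructokinases themselves, the committed step, were at -0.18 ± 0.06 (PFKM), 0.11 ± 0.07 (PFKL) and 0.01 ± 0.06 (PFKP).

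Among 7 measured of 15 other glucose transporters and the arrestins that remove them from the membrane, 1 rose. SLC2A14 had levels of 9.63 ± 0.01 (SD, n = 3) in sh-JMJD1B and 9.31 ± 0.1 (SD, n = 2) in sh-CTL, a difference of 0.31 ± 0.06 (adjusted p = 0.021 in limma), though the call was lost in 7 of 17 alternatives. SLC2A14 is a close copy of SLC2A3, the high-affinity transporter of neurons and blood cells, and the probes may not tell them apart. SLC2A3 was at 0.11 ± 0.06 (adjusted p = 0.34 in limma). TXNIP, an arrestin that lowers glucose uptake, was at 0.06 ± 0.07.

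Of 13 measured of 19 genes for the fate of pyruvate and lactate, 1 fell and 1 rose. The lactate transporters SLC16A1, SLC16A3 and SLC16A7 were among those not measured. PDP1, at 0.3 ± 0.07, just missed the threshold (adjusted p = 0.05 in limma). PDK4, a kinase that switches off pyruvate dehydrogenase, had the largest difference among the glucose metabolism lists. Its levels were 8.05 ± 0.06 (SD, n = 3) in sh-JMJD1B and 8.53 ± 0.01 (SD, n = 2) in sh-CTL. The difference of -0.48 ± 0.06 (adjusted p = 0.0024 in limma) kept its call in 17 of 17 alternatives. It was -0.81 with the pooled background subtracted and -0.87 with normexp, and the probe was dim, with signals of 238 to 346. MPC2, a subunit of the mitochondrial pyruvate carrier, rose by 0.27 ± 0.06 (adjusted p = 0.036 in limma) and lost its call in 8 of 17 alternatives, among them every one that left out 1 array.

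No probe passed in limma for the pentose phosphate pathway (8 of 9 genes measured), glycogen metabolism (8 of 12) or the citric acid cycle (16 of 19), with median differences of 0.04, -0.015 and 0.03 on the brightest probes. At an unadjusted p under 0.05 in limma, 2 of 8, 2 of 11 and 3 of 21 probes passed, or 25%, 18.2% and 14.3%, against 21.2% of all probes. The smallest p-values were those of TALDO1 (-0.17 ± 0.06) and PGLS (0.17 ± 0.06), of GBE1 (0.22 ± 0.06) and PYGB (0.21 ± 0.06), and of CS on ILMN_2396410 (0.16 ± 0.06) and SUCLG2 (0.15 ± 0.06). The brighter CS probes ILMN_1706057 and ILMN_3307648 were at -0.04 ± 0.06 and -0.02 ± 0.06. Of 9 measured of 11 known regulators, 1 fell, EPAS1, the hypoxia-inducible factor 2α, by 0.31 ± 0.06 (adjusted p = 0.015 in limma), a call lost in 8 of 17 alternatives. On the brightest probes, 5 of the 9 were positive and 4 negative. MLX had the second smallest p-value of the list, at 0.3 ± 0.09 on its brighter probe (adjusted p = 0.083 in limma), and its other probe was at 0.08 ± 0.08. HIF1A was at 0.03 ± 0.08 on its brightest probe and at 0.17 ± 0.08 and 0.07 ± 0.06 on the others. MYC was at -0.12 ± 0.07 and SP1 at 0.07 ± 0.06.

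**Figure D4:**
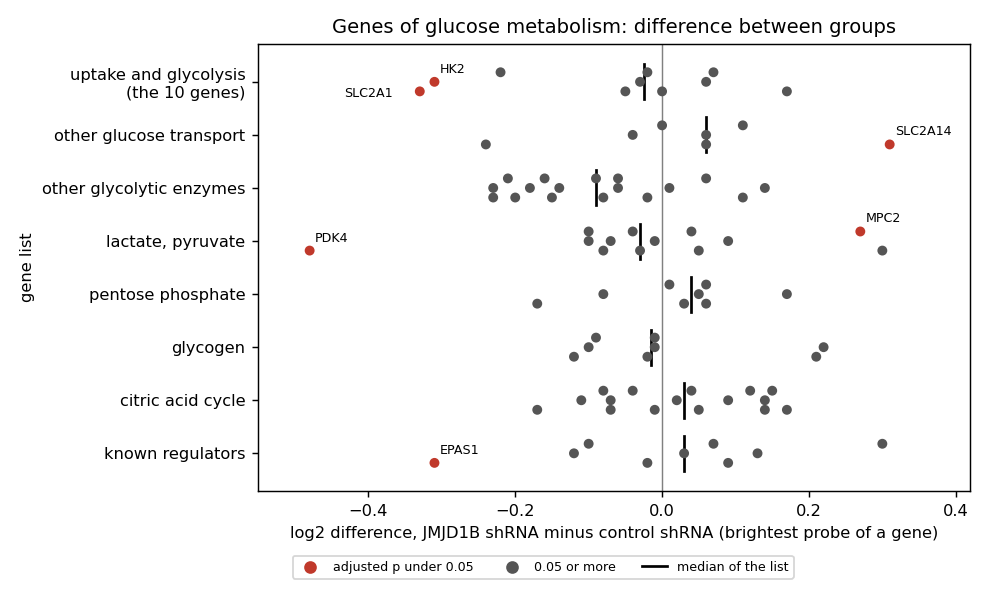
Difference between groups for the genes of glucose metabolism, 1 point per gene on its brightest probe, as log2 of sh-JMJD1B minus sh-CTL, with a black bar at the median of each list. Red marks adjusted p under 0.05 in limma; SLC2A1, HK2, PDK4 and EPAS1 lie to the left and MPC2 and SLC2A14 to the right, and the median of the other glycolytic enzymes is -0.094.

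SLC2A1 is also a major membrane protein of human red cells, so the K562 markers are given beside it. Of the 14 measured, 2 fell in limma, embryonic globin HBZ by 0.56 ± 0.07 and ALAS2, of haem synthesis, by 0.51 ± 0.07, and 0 rose. On the brightest probes, 8 of the 14 were negative and 6 positive. The uncalled ones ran from -0.19 for HBA2, an alpha globin, to 0.11 for GATA1, a transcription factor of red cell precursors. The summed deposited signal of the list, over the brightest probe of each gene, was 221177 to 231900 in sh-JMJD1B and 231457 to 233000 in sh-CTL before normalization. HBG1 and HBG2, close to the highest signals of the arrays, hold most of that sum, in which the groups overlapped. Without them, a split made after the values were seen, it was 91985 to 99746 against 101971 to 103271, with no overlap. That smaller sum still holds HBZ and ALAS2, so it is not independent of those 2 calls. On single probes after normalization, the groups did not overlap for 37.8% of all probes. Of the 7 measured markers of other cells, 1 fell, EPCAM, by 0.51 ± 0.07 on its brightest probe. EPCAM probe ILMN_3249032 was also called, at -0.5 ± 0.07, but ILMN_2160209 was not, at -0.22 ± 0.11 (adjusted p = 0.29 in limma). The summed signal of the 7, EPCAM included, was 6585 to 7232 against 7678 to 7805. The part of these changes in the results for SLC2A1 and HK2 was not tested.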

How the data were processed

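The authors' deposited bead intensity values of 5 arrays were used; per the submitters' processing notes they came from GenomeStudio 2009.2, whose settings the sources used here do not give. A larger deposited table gives the same intensity values for 47321 probes with a detection p-value each, per the file headers, under 5 column names that match no sample. It served only to name rows, to attach detection and, pooled, as a background level (median signal 124 of the 24817 probes undetected on every array). Each of the 19144 labelled rows matched exactly 1 probe by its 5 signals, while 47 rows carry that probe's own ID, so rows were named by the matched probe. A single gene symbol was annotated for 14581 probes, several for 2 and none for 4561; RefSeq (GRCh38.p14) gave the current symbol of 14574.

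Signals plus 16 were put on a log2 scale, quantile normalized and fitted with limma 3.58.1 in R 4.3.3 (group only, 3 residual degrees of freedom, 10.1 with the prior). The fit was tested on simulated data with independent noise and with changes larger than those of SLC2A1 and HK2. That test therefore does not cover changes of their size. A gene's brightest kept probe stands for it in lists. Lists name called members, or the 2 with the smallest p, plus genes singled out for their known roles after values were seen. Members, lists and alternatives were chosen with earlier results of these data known. The median standard error was 0.07; the number of arrays limits the precision. Sequences are from RefSeq, which held windows for all 10 genes.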

Additional observations from a re-analysis of the deposited data

How the results depend on the processing

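SLC2A1 and HK2 (ILMN_1723486) were lower under all 17 alternatives and passed in 10 and 9. Both passed with cyclic loess or median scaling, both other filters, an offset of 50, weighted arrays, a trended and robust eBayes, and 1 probe per gene. They missed it without normalization (-0.25 for both), with the pooled background subtracted and with normexp (-0.34 for both), leaving 0 of the 20 probes called; the cause was not tested. Replicates share numbers 1 and 2, but nothing says that these mark a shared culture or day, and deviations from the group means correlated at -0.22 and -0.09. With the replicate number as a block, SLC2A1 was at -0.36 and HK2 at -0.33, 0 of the 20 probes passed, and over all probes 194 were higher and 145 lower. With 1 array left out, SLC2A1 ran from -0.39 to -0.28 and HK2 from -0.35 to -0.26, 0 to 1 of the 20 were called, and over all probes 176 to 239 were higher and 131 to 216 lower. Where sh-CTL kept 1 array, it is assumed to vary like sh-JMJD1B. The reported 449 and 519 became 791 and 153 without normalization, 130 and 92 with the pooled background subtracted, and 95 and 52 with normexp.

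No probe higher in sh-JMJD1B was called among the 20 in limma under any alternative. PKM ILMN_2366634 (-0.22) passed under 2. Only uncalled probes near 0 changed sign. Without normalization, HK1 ILMN_2382990 was at 0.04, ALDOA ILMN_1741148 at 0.06, ENO1 at 0.05, PKM ILMN_1672650 at 0.01 and ILMN_1775327 at 0.06, and LDHA ILMN_1807106 at 0.06 and ILMN_3249748 at 0.1. Median scaling put ALDOA ILMN_1741148 and PKM ILMN_1775327 at 0 and the same LDHA probes at 0.01 and 0.04; cyclic loess put PKM ILMN_1775327 at 0 and LDHA ILMN_3249748 at 0.02; the block put ENO1 at 0.03. With 1 array left out, the ranges that crossed 0 were ALDOA ILMN_1741148 (-0.08 to 0.02), GAPDH ILMN_2038778 (-0.02 to 0.14), ENO1 (-0.03 to 0.03), PKM ILMN_1672650 (-0.1 to 0.01) and ILMN_1775327 (-0.12 to 0.11), and LDHA ILMN_3251145 (-0.04 to 0.12) and ILMN_3249748 (-0.05 to 0). A block for slide or scan was not run. LDHA ILMN_3251145, with signals of 167 to 216, lies near the pooled background of 124.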
